A study of Mus musculus with 2 samples.

Results

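Connexins and pannexins form the large-pore channels through which cells pass ions and small molecules to each other or to the outside. Connexins assemble into hemichannels, and hemichannels of neighbouring cells dock into gap junctions. Pannexin 1 forms channels in the membrane of a single cell and is best known for releasing ATP, which purinergic receptors then sense. In mammary tissue and its tumours connexin 43 (Gja1) and connexin 26 (Gjb2) are the connexins described most often, and loss or mislocation of either is a common feature of such tumours.

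The genes described are Gja1, Gja4, Gjb2, Gjb5, Gjc1 and Panx1, 6 genes chosen by name from the connexin and pannexin families with their differences between the libraries known. The choice therefore used the same comparison that is described below, and every difference in these genes is a description, with no test. Of the 6, 5 have a row among the 12707 genes of the deposited table, and Gjb5, a connexin of skin and placenta, was not analysed here. Of their relatives, Gjc3 and Gja10 are described beside them.

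RNA was sequenced from live CD45-negative cells sorted out of Py8119 tumours, with 1 library from Mtdh knockout (KO) hosts and 1 from Mtdh wild-type (WT) hosts. Py8119 is a mouse mammary tumour line with mesenchymal character derived from an MMTV-PyMT tumour, and the injected cells were wild type for Mtdh in both groups. For the knockout allele, mouse age and number of tumours pooled per library, the labels give nothing. The gate removes CD45-positive leukocytes but does not separate tumour cells from stromal and vascular cells of the host, so in these bulk samples fewer cells of a type and less RNA per cell cannot be told apart. Each host genotype has 1 library, so all differences below lack replicates and describe this pair of libraries.

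The deposited values are log2(FPKM + 1), where FPKM is fragments per kilobase of the gene's genomic span and per 1000000 of the library. Reads recovered from those values totalled 23381742 for the KO host and 26069390 for the WT host. RPM below means reads per 1000000 of these totals, and ratios are KO host over WT host with a 95% exact conditional binomial interval that covers counting error only. Mtdh itself had 23130.4 reads in the KO host library and 28376.5 in the WT host library, a ratio of 0.909 (0.893 to 0.925) and the tumour cells carry the gene in both groups, so this value is a weak check of the host label. Ptprc, which encodes CD45, was at 64 reads in the KO host library and 46 in the WT host library.

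Most connexins share a signature in the first extracellular loop, the part that meets the partner hemichannel. It consists of cysteines at fixed distances, which are linked by disulphide bonds to those of the second loop. The coding stretch for this signature is shown to make the kinship of the named genes visible, from the longest protein-coding transcript of each gene in GENCODE M21 (GRCm38), 5′ to 3′, with the cysteine codons in capitals.
Gja1: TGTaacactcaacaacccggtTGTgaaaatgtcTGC
Gja4: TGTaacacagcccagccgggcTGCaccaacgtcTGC
Gjb2: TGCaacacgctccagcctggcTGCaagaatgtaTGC
Gjb5: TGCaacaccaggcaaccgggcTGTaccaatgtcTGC
Gjc1: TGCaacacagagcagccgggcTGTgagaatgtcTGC
The stretch covers codons 54 to 65 in Gja1 and Gja4 and codons 53 to 64 in Gjb2, Gjb5 and Gjc1. Between pairs of these 36-base stretches 24 to 29 bases were identical, lowest for Gja1 with Gja4 and highest for Gjb5 with Gjc1. The coding sequence of Panx1 holds 0 copies of the same codon spacing, and so does that of the connexin Gje1. Pannexins form channels of related shape without a common sequence origin with connexins.

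The most abundant of these genes was somewhat higher in the KO host library, the next was level, and the ones past a 2-fold difference had few reads. Gja1 was 1.43-fold higher, Gjc1 was at a ratio of 1.04, Gja4 had 127 reads in the KO host library and 1 in the WT host library, and Panx1 was 2.09-fold lower. Of the 4 genes with 100 or more reads over both libraries, 1 was 2-fold or more higher (Gja4) and 1 was 2-fold or more lower (Panx1). The share over all genes is taken from the 10647 with that many reads and 0.5 read or more in each library, which leaves out 166 others. Of the 10647, 8.39% were 2-fold or more higher in the KO host library and 11.3% lower, so with 4 genes the counts themselves say little. Because these genes were chosen from this same comparison, nothing is read from their share.

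**Figure D1:**
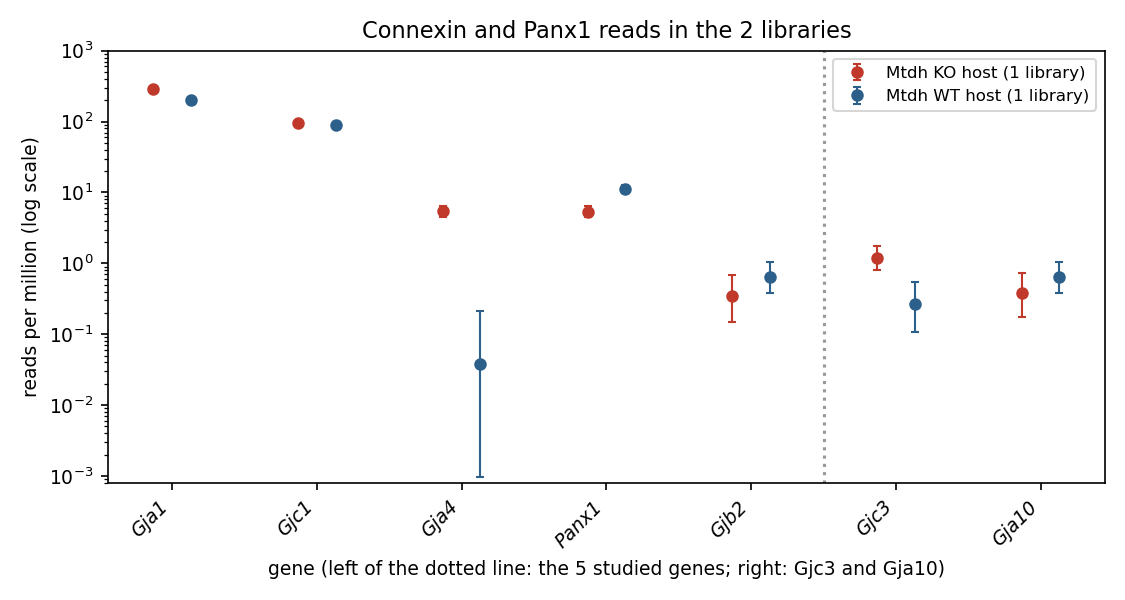
RPM (log axis) of the 5 listed genes under study and of Gjc3 and Gja10 in the KO host and WT host libraries; bars are exact Poisson 95% intervals of the reads. Gja1 and Gjc1 lie between 91.0 and 289.8 RPM in both libraries, while Gja4 is at 5.43 RPM in the KO host library and rests on 1 read in the WT host library.

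Gja1 encodes connexin 43, the most widely expressed connexin and the main one of fibroblasts, myoepithelium and many mesenchymal cells. It lies on chromosome 10, plus strand (ENSMUSG00000050953, mm39, chr10:56253426-56278609). It had 6776.2 reads (289.8 RPM) in the KO host library and 5292 reads (203.0 RPM) in the WT host library. The KO host library was higher, at a ratio of 1.43 (1.38 to 1.48) and a log2 ratio of 0.51, short of 2-fold. On the deposited scale the values were 3.64 and 3.18 in the KO host and WT host libraries, a difference of 0.47. The read number in the KO host library is not whole, as is found where counting splits reads between genes. In GENCODE M21 the longest stretch that Gja1 transcripts share with a transcript of another gene is 82 bases, in the long non-coding RNA Gm27162.

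Gja1 supplied most of the reads of the group. It made up 73.3% of the summed 395.5 RPM of the 5 listed genes in the KO host library and 66.4% of 305.9 RPM in the WT host library. Most of the larger sum in the KO host library was Gja1.

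Gjc1 encodes connexin 45, a low-conductance connexin of smooth muscle, pericytes and the conducting tissue of the heart. It lies on chromosome 11, minus strand (ENSMUSG00000034520, mm39, chr11:102690405-102710526). It had 2210 reads (94.5 RPM) in the KO host library and 2372 reads (91.0 RPM) in the WT host library. The ratio was 1.04 (0.980 to 1.10), an interval that includes 1 on counting error alone. The deposited values were 2.51 and 2.47 in the KO host and WT host libraries.

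Gja4 encodes connexin 37, which is typical of arterial endothelium and is also made by pericytes and smooth muscle of small vessels. It lies on chromosome 4, minus strand (ENSMUSG00000050234, mm39, chr4:127205214-127207832). It had 127 reads (5.43 RPM) in the KO host library and 1 read (0.0384 RPM) in the WT host library. The ratio was 142 (24.96 to 5636), so its size is poorly fixed by a single read. The shares that follow are over the 2410 genes with 100 to 500 reads in total and 0.5 read or more in each library. Of these, 21.9% were 2-fold or more higher and 27.3% lower. In 2.37% the WT host library had 5 reads or fewer, and in 3.61% the KO host library did. Genes with under 0.5 read in 1 library are left out, 166 over all genes with 100 or more reads. The last 2 shares therefore understate how often reads are nearly absent from 1 library. On the deposited scale Gja4 was at 1.62 in the KO host library and 0.02 in the WT host library, a difference of 1.60, but its mean is below the 1 used as a filter there.

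Panx1 encodes the ATP-release channel pannexin 1. It lies on chromosome 9, minus strand (ENSMUSG00000031934, mm39, chr9:14913424-14956774). It had 126 reads (5.39 RPM) in the KO host library and 293 reads (11.2 RPM) in the WT host library. The KO host library was lower, at a ratio of 0.479 (0.386 to 0.593) and a log2 ratio of -1.06, just past 2-fold. This gene too falls among those of 100 to 500 reads. Its span of 43.4 kb makes the deposited value small, at 0.17 in the KO host library and 0.33 in the WT host library, and the added 1 leaves a difference of -0.16.

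Gjb2 encodes connexin 26, the epithelial connexin of the lactating mammary gland, the epidermis and the cochlea. It lies on chromosome 14, minus strand (ENSMUSG00000046352, mm39, chr14:57336057-57342159). It had 8 reads (0.342 RPM) in the KO host library and 17 reads (0.652 RPM) in the WT host library. The ratio was 0.525 (0.196 to 1.28), so a difference was not detectable at this depth. With 25 reads in total it is not among the genes counted above.

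**Figure D2:**
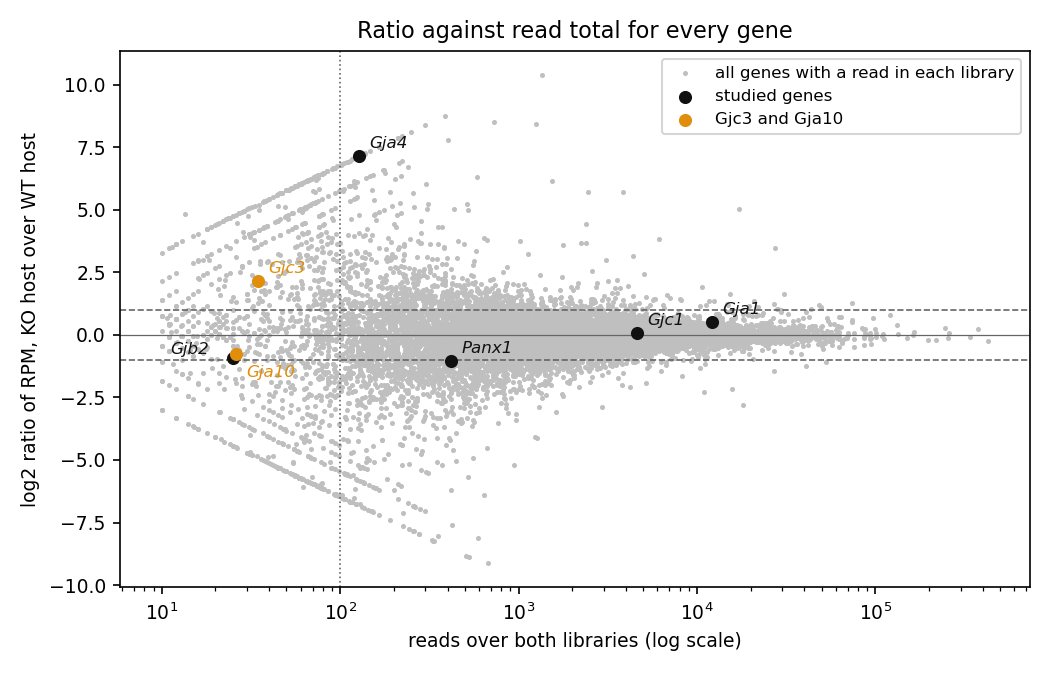
Log2 ratio of RPM, KO host over WT host, against the reads over both libraries (log axis) for every gene with a read in each library (grey), with the 5 listed genes under study in black and Gjc3 and Gja10 in orange. Dashed lines mark 2-fold and the dotted line 100 reads; Gja4 and Panx1 lie where the grey points spread widely, while Gja1 and Gjc1 lie where the spread is narrow.

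The spread of all genes narrowed with depth. Among genes of 500 to 5000 reads in total, the range of Gjc1, 5.63% were 2-fold or more higher in the KO host library and 8.96% lower. Among those of 5000 reads or more, the range of Gja1, 1.51% were higher and 0.841% lower. On the deposited scale, with a difference of 1 or more and a mean of 1 or more, 2.31% of 6057 genes were higher and 2.64% lower. By that rule 0 of the genes under study were called in either direction.

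To order the levels, RPM was divided by the exon length of each gene (union of exons in GENCODE M21), which gives RPM per kilobase of exon. Of the genes under study Gja1 was first in both libraries, at 86.0 RPM per kb in the KO host library and 60.2 in the WT host library, followed by Gjc1 at 34.7 in the KO host library and 33.4 in the WT host library. Gja4 was at 3.22 RPM per kb in the KO host library and 0.0228 in the WT host library, Panx1 at 0.940 in the KO host and 1.96 in the WT host library, and Gjb2 at 0.142 in the KO host and 0.271 in the WT host library. Gja4 thus stood above Panx1 in the KO host library and below both Panx1 and Gjb2 in the WT host library. There is no replicate spread against which to judge neighbours in this order.

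For Gja1, Gjb2, Gjc1 and Panx1 the 3 nearest listed genes on each side were looked up, to show how they behaved. Some lie far off. Around Gja1 the gaps run from 148640 bases (Tbc1d32) to 2300720 bases (Man1a), whereas Eftud2 lies 18772 bases from Gjc1. Around Gja1 the 5 neighbours with 100 or more reads had log2 ratios from -0.36 to 0.46. Around Panx1 the 6 such neighbours lay between -0.41 and 1.02, with Ankrd49 past 2-fold. Around Gjc1 they lay between -3.39 (Kif18b) and 0.54, and around Gjb2 between -0.15 and 1.12 (Pspc1). Gjc3, a connexin of myelinating glia, had 27.5 reads in the KO host library and 7 in the WT host library, and Gja10, a connexin of the retina, had 9 reads in the KO host library and 17 in the WT host library. Both are under 100 reads in total.

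With only 2 libraries the pattern of a gene is a single ratio, and many genes share it. Among genes with 1000 or more reads, 237 lay within 0.05 (log2) of Gja1, the nearest being Napg and Shox2. For Gjc1 there were 611, the nearest being Las1l and Hivep1.

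The promoters of Gja1 and Gja4, the genes under study with more reads in the KO host library by the interval of the ratio, are shown because they differ in make-up. Each run holds the 250 bases before the RefSeq transcription start on GRCm38.p6, 5′ to 3′ on the strand of the gene, at chr10:56377050-56377299 (plus) for Gja1 and chr4:127314040-127314289 (minus) for Gja4. Capitals mark a match to TGANTCA, the AP-1 motif, in Gja1 and to GGGCGG, the GC box, in Gja4.
Gja1: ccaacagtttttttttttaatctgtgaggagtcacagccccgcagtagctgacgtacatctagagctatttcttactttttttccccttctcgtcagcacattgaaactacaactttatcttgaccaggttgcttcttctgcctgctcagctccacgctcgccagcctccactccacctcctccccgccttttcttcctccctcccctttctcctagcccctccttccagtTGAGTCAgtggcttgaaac
Gja4: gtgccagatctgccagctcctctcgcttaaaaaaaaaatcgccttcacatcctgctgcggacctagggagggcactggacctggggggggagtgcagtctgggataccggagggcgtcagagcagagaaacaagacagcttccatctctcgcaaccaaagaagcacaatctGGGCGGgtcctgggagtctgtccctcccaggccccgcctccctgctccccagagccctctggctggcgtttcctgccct
In Gja1 the match begins 19 bases before the start, and in Gja4 it begins 79 bases before it. The window is 50.0% G and C in Gja1 and 61.2% in Gja4. Of 32851 promoter windows of the same length, 6.7% hold TGANTCA and 32.7% hold GGGCGG on either strand. Among the other windows, that of Gjb2 (69.2% G and C) holds GGGCGG at 2 places, and those of Panx1 and Gjb5 hold 1 CCAAT each (33.8% of all windows). A TATAAA match was found in the window of Gjb5 (12.4% of all windows). These matches describe letters and not bound sites.

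Genes that move, anchor and remove connexins included 2 that were 2-fold or more higher in the KO host library, Erp29 and Ctnnd1. Of 22 such genes with 100 or more reads, 2 were higher, 0 were lower and 20 lay between, where 8.39% of all genes were higher and 11.3% lower, so a count of this size is not a result about the list. The median log2 ratio was 0.04, against -0.06 over all genes. Erp29, a chaperone that holds connexin 43 in monomeric form, had 458.8 reads (19.6 RPM) in the KO host library and 228.5 reads (8.77 RPM) in the WT host library. Its ratio was 2.24 (1.90 to 2.63), an interval that includes 2-fold. Ctnnd1 (p120 catenin) had 171 reads in the KO host library and 2 in the WT host library, a ratio of 95.3 (25.99 to 793). So few reads fix the size of this ratio poorly. As given for Gja4, 2.37% of the genes of 100 to 500 reads had 5 reads or fewer in the WT host library. Nedd4, a ubiquitin ligase that acts on connexin 43, was at 1655 RPM in the KO host library and 2154 RPM in the WT host library, and the caveolar protein Cav1 at 1478 RPM in the KO host and 1965 RPM in the WT host library. Tjp1, which encodes the scaffold ZO-1, was at a ratio of 0.677, and Cdh1 (E-cadherin) at 1.67.

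Of 14 kinases that phosphorylate connexins, 0 were 2-fold or more higher and 1 was lower, with a median log2 ratio of -0.08. With 8.39% of all genes higher and 11.3% lower, these counts too are no result about the list. The lower one was Prkcd, a protein kinase C, with 434 reads in the KO host library and 1034 in the WT host library (ratio 0.468, 0.417 to 0.524). Cdk1 was at a log2 ratio of -0.57, Mapk7 at -0.46, Camk2d at 0.06 and Csnk1d, which acts on gap junction assembly, at 0.29.

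**Figure D3:**
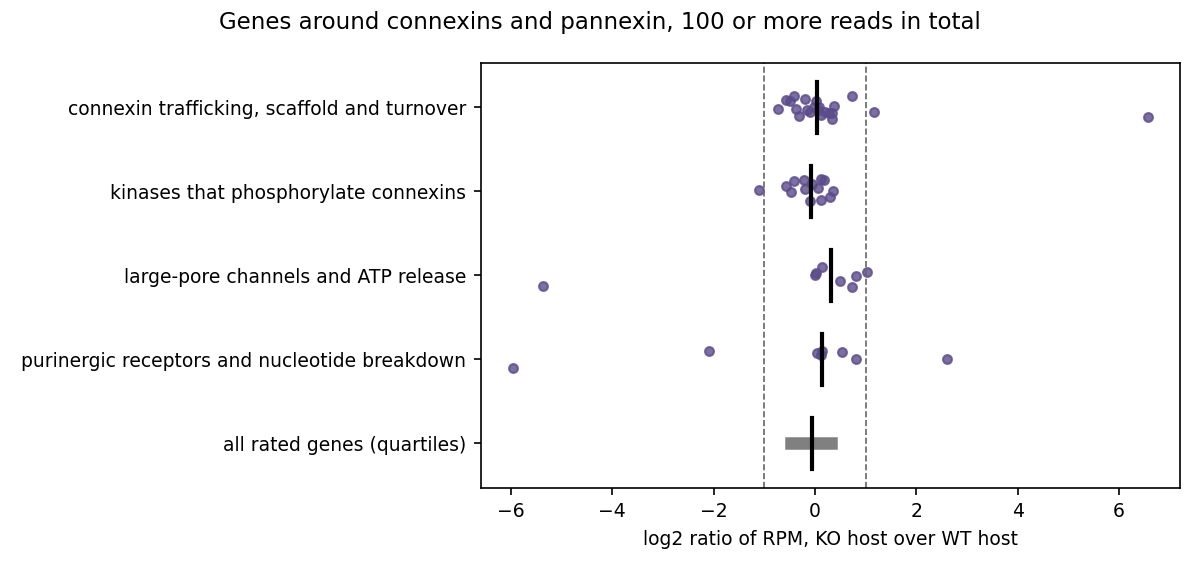
Log2 ratio of RPM, KO host over WT host, for each gene with 100 or more reads in total in the lists around connexins and Panx1. Black bars are list medians, and dashed lines mark 2-fold. The grey bar spans the quartiles of the 10647 genes with that many reads and 0.5 read or more in each library. Most points lie inside the lines, and the far ones, Ctnnd1, Calhm2 and P2ry2, have 3 or fewer reads in 1 library.

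Of 8 large-pore channels and ATP-release genes with 100 or more reads, 1 was 2-fold or more higher (Lrrc8d) and 1 was lower (Calhm2), with a median log2 ratio of 0.32. Over all genes 8.39% were higher and 11.3% lower, and with 8 genes nothing is read from the counts. Lrrc8d, a subunit of the volume-regulated anion channel, had a ratio of 2.03 (1.80 to 2.28), an interval that includes 2-fold. The obligate subunit Lrrc8a had 1823 reads in the KO host library and 1218 in the WT host library (ratio 1.67). Calhm2, another ATP-permeable channel, had 3 reads in the KO host library and 138 in the WT host library. Vdac1 was at a log2 ratio of -0.01 and Ano6 at 0.03.

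Of 8 purinergic receptors and nucleotide-handling genes, 1 was 2-fold or more higher (P2rx4) and 2 were lower (P2ry2 and Enpp1), with a median log2 ratio of 0.14. Beside the 8.39% higher and 11.3% lower over all genes, nothing is read from these counts either, and P2rx7 is counted both here and among the large-pore channels. P2rx4, an ATP-gated cation channel, had 351.2 reads in the KO host library and 64 in the WT host library, 6.12-fold higher (4.67 to 8.11). P2rx7, the ATP receptor that acts together with pannexin 1, had 532 reads in the KO host library and 339 in the WT host library, a ratio of 1.75 (1.52 to 2.01) and short of 2-fold. P2ry2, a receptor for ATP and UTP, had 3 reads in the KO host library and 209 in the WT host library. Enpp1, which breaks down extracellular ATP, had 110 and 524 reads in the KO host and WT host libraries, a ratio of 0.234 (0.189 to 0.288). Nt5e (CD73), which makes adenosine, was level at 95.2 RPM in the KO host library and 91.9 RPM in the WT host library, as were Adk and the nucleoside carrier Slc29a1, with log2 ratios of 0.13 and 0.14.

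Cell type markers differed between the libraries, and their part in the values above was not tested. The gate does not separate tumour cells from host cells, so the cells that made each marker are not known. The counts of markers with 100 or more reads below stand beside 8.39% higher and 11.3% lower over all genes. Vascular genes bear on Gja4. Of 14 endothelial markers 4 are listed, and they summed to 14.5 RPM in the KO host library and 18.5 RPM in the WT host library. They moved apart: Cdh5 (VE-cadherin) had 146 reads in the KO host library and 1 in the WT host library, Pecam1 had 128 in the KO host and 129 in the WT host library, and Plvap had 58 in the KO host and 348 in the WT host library. Of 12 pericyte and smooth muscle markers 7 are listed, with a sum of 96.8 RPM in the KO host library and 428.0 RPM in the WT host library. Most of both sums was Pdgfrb, at 72.3 RPM in the KO host library and 353 RPM in the WT host library. Of 4 such markers with 100 or more reads and a ratio, which leaves out Cspg4, 3 were 2-fold or more lower (Pdgfrb, Acta2 and Notch3) and 0 higher. The members did not all go one way. Cspg4, a defining pericyte gene, was listed at 0 in the KO host library and had 190 reads in the WT host library, whereas Abcc9, a channel subunit of pericytes, had 55.7 reads in the KO host library and 1 in the WT host library (ratio 62.1, 10.8 to 2510). Abcc9 is under 100 reads in total, as is Mcam, which had 18 reads in the KO host library and 44 in the WT host library. Tagln, of smooth muscle, was level at 62 reads in the KO host library and 70.5 in the WT host library.

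Fibroblast genes bear on Gja1, which fibroblasts make in quantity. Of 10 markers 9 are listed, with a sum of 937.2 RPM in the KO host library and 2584 RPM in the WT host library, and of 7 with 100 or more reads 5 were 2-fold or more lower and 0 higher. Col1a1 had 2059 reads in the KO host library and 16111 in the WT host library, while Pdgfra was level at a ratio of 0.966. Gja1 was higher and Gjc1 level, and how these values relate to the marker sums was not tested.

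Epithelial genes bear on Gjb2. Of 12 mammary epithelial markers 9 are listed, with a sum of 339.9 RPM in the KO host library and 207.8 RPM in the WT host library, and of 6 with 100 or more reads 3 were 2-fold or more higher and 0 lower. Epcam had 151 reads in the KO host library and 55 in the WT host library, and Cldn4 had 783 in the KO host and 251 in the WT host library. Elf5, a factor of luminal progenitors, went the other way, listed at 0 in the KO host library and with 45 reads in the WT host library. Keratinocyte markers, of which 6 of 13 are listed, summed to 24.3 RPM in both libraries, with Krt5 and Krt14 not among those analysed here. The equal sums hide members that moved apart. Of 4 with 100 or more reads and a ratio, which leaves out Krt16, 0 were 2-fold or more higher and 1 was lower. That was Krt6a, with 14.2 reads in the KO host library and 109.2 in the WT host library (ratio 0.145, 0.0758 to 0.251). Krt16 had 164.3 reads in the KO host library and was listed at 0 in the WT host library, while Trp63 was listed at 0 in the KO host library and had 99 reads in the WT host library.

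Macrophage markers (9 of 9 listed) summed to 213.3 RPM in the KO host library and 171.5 RPM in the WT host library. Of 6 with 100 or more reads 2 were 2-fold or more higher and 0 lower. Mpeg1 had 952 reads in the KO host library and 378 in the WT host library (ratio 2.81), and Cd68 had 70 in the KO host and 33 in the WT host library (ratio 2.37). Mrc1 went the other way, short of 2-fold, with 67 reads in the KO host library and 146 in the WT host library (ratio 0.512, 0.377 to 0.688). Adgre1 and Csf1r were near level, at ratios of 1.09 and 1.10. Most of the sum was Lyz2, at 148 RPM in the KO host library and 134 RPM in the WT host library, a ratio of 1.10. Pan-leukocyte markers (7 of 8 listed) summed to 14.5 RPM in the KO host library and 19.4 RPM in the WT host library, and of 5 with 100 or more reads 0 were higher and 1 was lower. The lower one was Arhgdib, at 3.34 RPM in the KO host library and 8.13 RPM in the WT host library. Ptprc, which encodes CD45 itself, had 64 reads in the KO host library and 46 in the WT host library. Platelet markers (4 of 5 listed) summed to 3.58 RPM in the KO host library and 8.74 RPM in the WT host library. Only Gp1bb among them reached 100 reads in total, with 17.7 reads in the KO host library and 126.8 in the WT host library. Ppbp had 1 and 53 reads in the KO host and WT host libraries and Pf4 had 12 and 23. Itga2b went the other way, with 53 reads in the KO host library and 25 in the WT host library. Schwann cell markers (4 of 6 listed) summed to 5.73 RPM in the KO host library and 2.72 RPM in the WT host library.

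**Figure D4:**
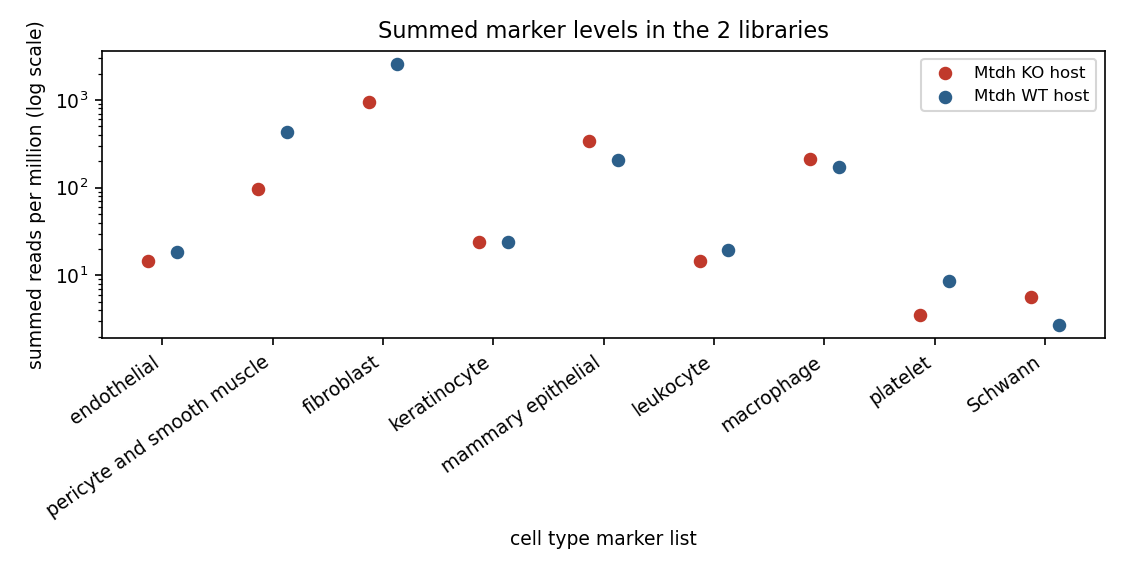
Summed RPM (log axis) of the listed members of each cell type marker list in the KO host and WT host libraries, 1 point per library. Fibroblast and pericyte sums are lower in the KO host library, and most of the pericyte sum is Pdgfrb. The mammary epithelial sum is higher, and the keratinocyte sum is equal at 24.3 RPM, with members that differ in both directions.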

How the data were processed

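Live CD45-negative cells of dissociated Py8119 tumours were sorted and their RNA depleted of ribosomal RNA, per the labels' protocols. The authors deposited 1 table of log2(FPKM + 1) values. The submitters' processing notes name STAR 2.7.8a, Partek and mm39, while annotation release, strand and multi-mapped read handling are not given in the sources here. The deposited log2 values take as length the whole genomic span with introns, so differences of long or low genes are understated.

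FPKM times length gave RPM, and the step between low values gave the library totals (tested on simulated data). Of values under 1000 reads, 83.4% in the KO host library and 84.9% in the WT host library were whole within 0.1 read. Ratios need 0.5 read in each library, and 2-fold calls need 100 reads in total as well. The 166 genes with that total that failed the first rule are left out of the shares of all genes in reads. A value of 0 is given as listed at 0, with no ratio. Deposited stop positions are 1 past the last base (98.1% of gene lengths matched GENCODE M21).

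No test was run, since each group has 1 library. Members and lists were chosen with earlier results of these data known. Named genes are the members, their relatives, the 3 nearest neighbours on each side, the genes of nearest ratio, and from each pathway list those 2-fold apart, the 3 with the largest ratio and the 2 with the highest RPM; Tjp1, Lrrc8a, Nt5e, the marker genes printed and the motifs were added after their values were seen. Some genes that this rule takes, with the neighbours of Gja4 and 1 list, are not reported here. RefSeq promoters matched 5 of the 6 genes. Python 3.11.15, numpy 2.4.6, pandas 2.3.3 and scipy 1.17.1 were used.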

Additional observations from a re-analysis of the deposited data

How the results depend on the processing

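The 2 calls among the genes under study rest on genes of few reads. With 1 gene 2-fold or more higher (Gja4) and 1 lower (Panx1) in reads, both counts were 0 on the deposited log2(FPKM + 1) scale, 0 with 0.1 added in place of 1, 0 with 5 added, and 0 among genes with 500 or more reads; both stayed at 1 without a filter on reads and under median-ratio or upper-quartile scaling. The first 3 of these settings keep genes with a mean deposited value of 1 or more, which Gja4 (0.82) and Panx1 (0.25) do not reach, and the fourth a read number that neither reaches. Apart from the filter, the difference of Panx1 is short of 1 with each added value, and that of Gja4 with 5 added. The log2 ratio of Gja4 was 7.15 in reads, 1.60 as the deposited difference, 4.24 with 0.1 added and 0.50 with 5 added, and that of Panx1 was -1.06, -0.16, -0.68 and -0.037. With 5 added, a setting for single genes that was chosen after seeing the data, Gja1 was at 0.34 in place of 0.51. For Gjc1 and Gjb2 these settings, for Gja1 those with 1 or 0.1 added, and for all 5 genes both scalings, moved the log2 ratio by less than the counting interval, and no direction turned. Over all genes, 893 higher and 1204 lower calls in reads compare with 140 and 160 on the deposited scale. No paired analysis was possible because each group has 1 library. Depth limits Gjb2 (8 reads in the KO host library and 17 in the WT host library) and the size of the Gja4 ratio.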
